A study of Mus musculus with 170 samples.

Results

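The comparison set young thymic epithelial cells against young thymic fibroblasts, the non-blood cells that build the mouse thymus. Its members were chosen by label alone: the 5 young thymic epithelial libraries and the 4 young thymic fibroblast libraries, 9 of the 170 libraries in the count table, compared as epithelial minus fibroblast over every gene. All 9 were bulk RNA-seq libraries of cells sorted from the thymus of mice at 2 months on a C57/Bl6 background, with tissue of 5 animals combined in each library. The labels give no sort markers, sex or treatment, and the mice carry no allele that the labels name. The same pair of cell types at 22-24 months (5 and 4 libraries), young keratinocytes (4 libraries) and young lymph node fibroblasts (3 libraries) served for reference.

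As background, thymic epithelial cells depend on the transcription factor FOXN1 and form an outer cortex, where immature T cells are positively selected on MHC molecules, and an inner medulla, where cells that react to self are deleted. Thymic fibroblasts, which carry the PDGF receptor alpha, line the capsule, septa and vessels, lay down collagen matrix and release growth factors such as FGF7 and FGF10 that act on the epithelium through FGFR2. The 2 populations thus hold different ends of the same signalling pairs.

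Total counts ran from 738488 (epithelial library 1) to 5607934 (epithelial library 5), and the 4 fibroblast libraries lay between 1392053 and 3005413. Of 55484 genes in the table, 13450 had enough reads to be tested. Levels are CPM, counts scaled to library size and adjusted by the trimmed mean of M-values (TMM), differences are log2 of epithelial over fibroblast with their standard error (SE), and p-values come from the edgeR quasi-likelihood F test, adjusted by Benjamini-Hochberg over the 13450 genes and called under 0.05. The tests measure the spread between these pooled libraries. Ddx3y, a Y-linked gene, was at 22.1 CPM in epithelial library 1 and 45.7 CPM in fibroblast library 1 and below 1 CPM in the other 7, so the 2 libraries numbered 1 stand apart. Without both of them the calls given below were 2249 higher and 2342 lower, in place of 2345 and 2404.

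The labels held for their defining genes. Foxn1 (ENSMUSG00000002057.4, chr11:78357577-78386558) read 50.4, 53.1, 81.1, 59.8 and 56.7 CPM in the epithelial libraries and 4.22, 5.02, 6.07 and 5.40 CPM in the fibroblast libraries. Pdgfra (ENSMUSG00000029231.15, chr5:75152292-75198215), the PDGF receptor alpha, read 12.3, 21.4, 23.0, 21.8 and 17.7 CPM in the epithelial libraries and 459, 471, 566 and 497 CPM in the fibroblast libraries. In both genes the 2 groups were far apart and each library sat with its own group. The differences were 3.60 ± 0.25 (adjusted p = 5.79e-10) and -4.61 ± 0.19 (adjusted p = 1.24e-12).

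**Figure D1:**
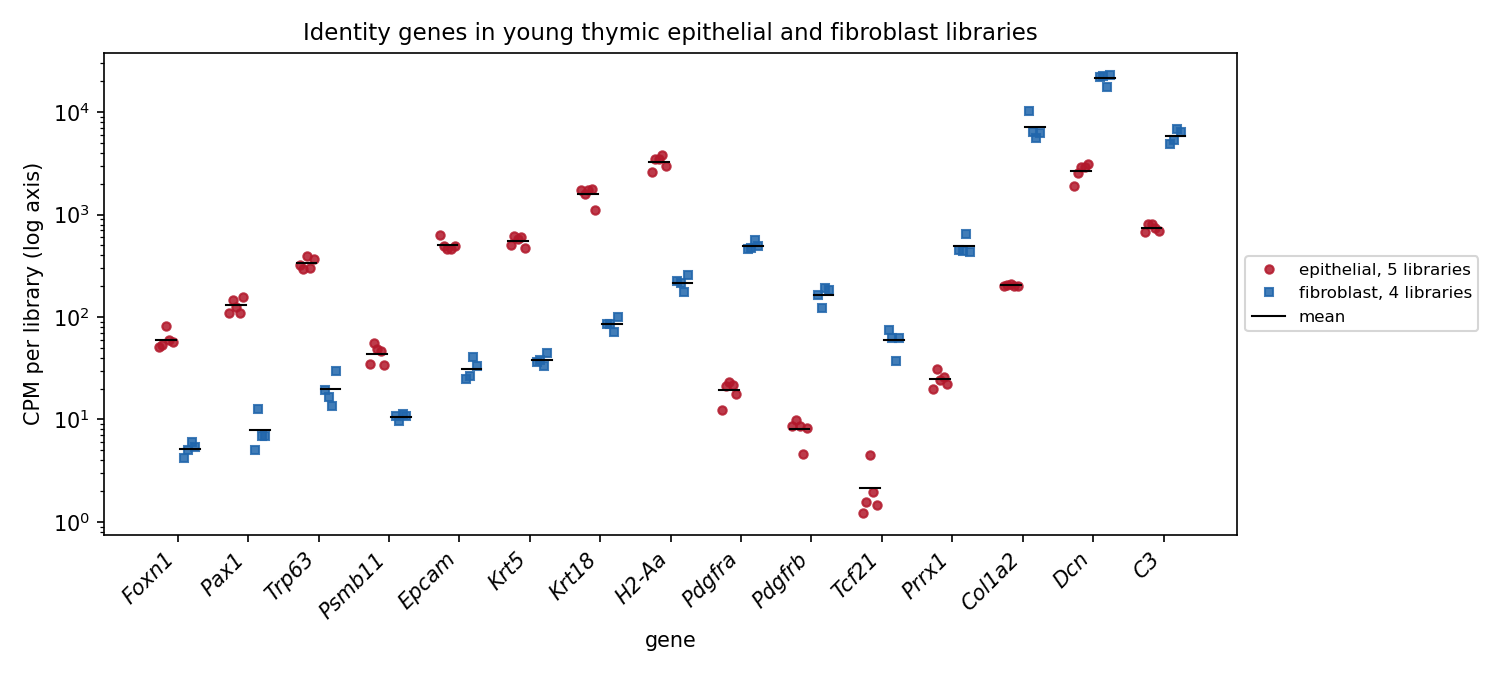
CPM of 15 identity genes on a log axis, one point per library (circles, 5 epithelial; squares, 4 fibroblast) with the mean as a black bar. The epithelial libraries lie above the fibroblast libraries from Foxn1 to H2-Aa and below them from Pdgfra to C3, with no overlap in any of these genes.

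Genes called in the comparison numbered 2345 higher in the epithelial libraries (17.4% of those tested) and 2404 lower (17.9%). These 2 shares are the background for the counts of list members below. Scaling to total counts alone, without TMM, gave 3413 higher and 1840 lower, so that 64.97% of the calls were higher instead of 49.38%. That scaling moved the median of all genes from 0.02 to 0.25 on the log2 scale, and small differences are read against this shift. At 4-fold or more the calls were 985 higher (7.32%) and 796 lower (5.92%). The libraries of the 2 groups did not overlap in 1748 of the 2345 higher genes and 1973 of the 2404 lower genes. The call itself favours genes whose libraries separate, so these 2 counts are a description and add nothing to the calls. In bulk RNA, fewer cells of a type and less RNA per cell cannot be told apart, and this holds for every gene below.

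Transcription factors of the thymic epithelium were higher without exception among those with enough reads: 13 of 13, with a median log2 difference of 3.61 against 0.02 over all genes. Hoxa3 and Tbx1 had too few reads to be tested. Pax1, a pharyngeal pouch factor that the thymus keeps, read 109, 148, 124, 110.5 and 157 CPM in the epithelial libraries and 4.99, 12.6, 6.82 and 6.87 CPM in the fibroblast libraries (4.08 ± 0.26, adjusted p = 1.52e-10). Isl1, a LIM homeodomain factor of the pharyngeal endoderm, read 130.4, 177, 209, 189 and 211 CPM in the epithelial libraries and 7.67, 7.95, 6.07 and 9.82 CPM in the fibroblast libraries (4.56 ± 0.22, adjusted p = 6.87e-12). Every epithelial library was above every fibroblast library for both. Trp63, the p53 relative that maintains stratified epithelia, differed by 4.10 ± 0.23 and Pax9, another pouch factor, by 4.36 ± 0.31. Klf5 had the smallest difference of the list at 1.64 ± 0.30, with no more than 17.4 CPM in the fibroblast libraries.

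All 8 keratins with enough reads, the intermediate filament proteins of epithelia, were higher by 3.83 to 5.15 on the log2 scale. Their summed level was 3563 to 5059 CPM in the epithelial libraries and 218 to 306 CPM in the fibroblast libraries. Krt5, which marks basal and medullary cells, read 501, 612, 583, 610.4 and 471 CPM in the epithelial libraries and 36.4, 38.1, 33.4 and 44.7 CPM in the fibroblast libraries. Krt8, the simple-epithelium keratin of the cortex, read 243, 386, 435, 451 and 301 CPM in the epithelial libraries and 27.6, 25.9, 22.7 and 28.5 CPM in the fibroblast libraries. Basal and simple keratins were thus both high in the same epithelial libraries and both low in the fibroblast libraries. Krt7 had the largest difference of the family (5.15 ± 0.22, adjusted p = 1.39e-12).

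Of 25 junction and polarity genes tested, 23 were higher (median 3.77) and none was lower. Epcam, the adhesion molecule by which thymic epithelium is usually recognised, read 638, 489.7, 466, 466 and 489.9 CPM in the epithelial libraries and 24.6, 26.8, 40.9 and 32.9 CPM in the fibroblast libraries (4.09 ± 0.22, adjusted p = 1.86e-11). Cdh1, which encodes E-cadherin, differed by 3.99 ± 0.20 and the tetraspan protein gene Perp by 4.79 ± 0.19. Desmosomes were represented by Dsp at 3.90 ± 0.21, and hemidesmosomes by Itgb4 at 4.05 ± 0.28. The splicing regulator Esrp1, which sets epithelial isoforms, read 22.0 to 31.9 CPM against 0.767 to 1.52 CPM. Jup, a plaque protein that non-epithelial cells also use, was not called (0.39 ± 0.20, adjusted p = 0.143), and neither was Cldn3 (-0.81 ± 0.51, adjusted p = 0.252).

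Promoter sequence is shown for 3 of these genes because the E box CAGGTG (reverse complement CACCTG) is the element through which ZEB and SNAIL repressors are known to act on epithelial genes, and these repressor genes, which did not all differ in the same direction, are described further on. The RefSeq table (GRCm38.p6) held 7 of the 10 keratins and 17 of the 28 junction genes. In the 250 bases before the start, searched on both strands, 5 of those 7 and 10 of those 17 contained the E box, as did 17.2% of all 32851 windows and 1 of the 8 transcription factor genes with an entry. A gene counted with a match in any of its windows, whereas the 17.2% is a share of single windows. The windows of Epcam (chr17:87635729-87635978, plus strand), Krt8 (chr15:102004343-102004592, minus strand) and Krt18 (chr15:102027966-102028215, plus strand) follow, 5′ to 3′, with the E box in capitals. A match describes these letters only.
Epcam: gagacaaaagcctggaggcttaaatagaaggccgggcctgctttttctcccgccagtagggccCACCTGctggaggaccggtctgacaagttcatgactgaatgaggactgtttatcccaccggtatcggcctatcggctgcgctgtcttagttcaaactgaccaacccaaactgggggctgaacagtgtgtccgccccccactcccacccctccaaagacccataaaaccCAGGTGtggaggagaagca
Krt8: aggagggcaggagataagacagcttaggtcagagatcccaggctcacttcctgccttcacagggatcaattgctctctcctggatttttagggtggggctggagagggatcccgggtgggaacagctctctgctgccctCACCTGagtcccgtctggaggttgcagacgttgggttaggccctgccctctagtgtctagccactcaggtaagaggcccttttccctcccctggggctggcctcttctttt
Krt18: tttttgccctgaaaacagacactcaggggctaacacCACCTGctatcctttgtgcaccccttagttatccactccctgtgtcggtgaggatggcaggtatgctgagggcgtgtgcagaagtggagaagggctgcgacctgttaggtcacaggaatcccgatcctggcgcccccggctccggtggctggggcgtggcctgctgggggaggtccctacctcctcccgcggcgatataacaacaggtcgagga

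Antigen presentation split by class. Of 12 MHC class II presentation genes, 11 were higher in the epithelial libraries (median 3.72), whereas of 16 class I and immunoproteasome genes 2 were higher, 1 was lower and 13 were not called (median 0.10). The class II genes summed to 12406 to 14325 CPM in the epithelial libraries and 884 to 1195 CPM in the fibroblast libraries. Ciita, the coactivator that class II transcription requires, read 101, 105, 104, 90.8 and 123 CPM in the epithelial libraries and 7.29, 9.63, 10.6 and 8.35 CPM in the fibroblast libraries (3.60 ± 0.21, adjusted p = 5.37e-11). H2-Aa, the alpha chain of I-A, read 2633, 3478, 3476, 3841 and 3006 CPM in the epithelial libraries and 223, 213, 176 and 255 CPM in the fibroblast libraries (3.96 ± 0.20, adjusted p = 1.16e-11). Both genes kept the 2 groups wide apart. H2-DMa, part of the chaperone that loads peptides, had the largest difference of the list at 4.54 ± 0.21. Ctss, the cathepsin that trims the invariant chain in myeloid cells, had the smallest of those called at 1.99 ± 0.35, and its epithelial libraries ranged from 39.7 to 143 CPM. Ifi30, a lysosomal thiol reductase, was not called (-0.37 ± 0.25, adjusted p = 0.299). Markers of blood cells that carry class II were measured beside it. Macrophage markers summed to 372.1 to 989.3 CPM in the epithelial and 49.29 to 158.2 CPM in the fibroblast libraries, with 8 of 10 called higher. Dendritic cell markers summed to 27.15 to 47.96 CPM and 41.01 to 69.83 CPM, with none higher and 1 lower of 2 tested. B and plasma cell markers summed to 497.6 to 921.1 CPM and 98.58 to 298.4 CPM, with 4 of 5 tested higher and none lower, although the B cell gene Cd79a was at most 1.74 CPM in all 9. The part of these cells in the class II difference was not tested.

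The class I light chain B2m was not called, at 6068, 7162, 6454, 8086 and 6437 CPM in the epithelial and 7661, 9159, 7274 and 10830 CPM in the fibroblast libraries (-0.31 ± 0.18, adjusted p = 0.211). H2-K1 differed by 0.12 ± 0.17 (adjusted p = 0.658). The class I members that were higher were Psmb9 (1.49 ± 0.17, adjusted p = 7.04e-07), a catalytic subunit of the immunoproteasome, and the peptide transporter Tap1 (0.74 ± 0.17, adjusted p = 0.00196). Tapbp, which holds class I to the transporter, was the member that was lower (-0.59 ± 0.21, adjusted p = 0.0343), and this call was lost with total counts only (-0.36, adjusted p = 0.177) and without fibroblast library 1 (-0.32, adjusted p = 0.216). It was also lost without epithelial library 2 (-0.55, adjusted p = 0.0833), 3 (-0.56, 0.075) or 4 (-0.51, 0.0852), at a difference about as large.

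Promoters of 4 class II genes are shown because class II promoters are known to share the Y box, an inverted CCAAT element close to the start. Of the 12 genes of the list, 9 had an entry in the RefSeq table (GRCm38.p6), and the letters GATTGG or CCAATC stood within 250 bases before the start in 7 of them, against 14.6% of all 32851 windows. Here too a gene counted with a match in any of its windows, and the 14.6% is a share of single windows. The 7 were H2-Aa, H2-Eb1, H2-DMa, H2-DMb1, H2-DMb2, H2-Oa and H2-Ob. Ctss and Ifi30 were without it, and 3 genes of the list had no entry. The windows are chr17:34287824-34288073 (minus strand) for H2-Aa, chr17:34305617-34305866 (plus) for H2-Eb1, chr17:34152941-34153190 (plus) for H2-DMb1 and chr17:34144999-34145248 (plus) for H2-DMb2. They are printed 5′ to 3′ with the letters GATTGG or CCAATC in capitals.
H2-Aa: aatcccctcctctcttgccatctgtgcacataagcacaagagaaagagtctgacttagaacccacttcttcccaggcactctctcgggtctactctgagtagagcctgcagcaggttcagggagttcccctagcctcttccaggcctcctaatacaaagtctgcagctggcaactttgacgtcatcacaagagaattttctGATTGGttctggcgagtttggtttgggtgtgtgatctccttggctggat
H2-Eb1: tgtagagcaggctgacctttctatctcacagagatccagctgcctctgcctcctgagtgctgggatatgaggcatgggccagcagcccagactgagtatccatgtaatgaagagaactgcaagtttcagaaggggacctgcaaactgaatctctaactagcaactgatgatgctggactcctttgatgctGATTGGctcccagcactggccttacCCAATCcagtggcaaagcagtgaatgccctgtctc
H2-DMb1: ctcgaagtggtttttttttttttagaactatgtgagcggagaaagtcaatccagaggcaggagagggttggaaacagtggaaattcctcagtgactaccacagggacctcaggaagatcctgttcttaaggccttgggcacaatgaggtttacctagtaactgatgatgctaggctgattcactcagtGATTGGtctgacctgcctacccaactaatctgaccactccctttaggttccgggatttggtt
H2-DMb2: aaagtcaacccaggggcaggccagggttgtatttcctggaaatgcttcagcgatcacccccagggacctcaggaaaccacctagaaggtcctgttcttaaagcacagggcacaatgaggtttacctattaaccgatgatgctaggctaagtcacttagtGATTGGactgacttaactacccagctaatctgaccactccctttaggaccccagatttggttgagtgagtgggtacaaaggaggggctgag
The capitals begin 49 bases before the start in H2-Aa, 62 in H2-DMb1 and 91 in H2-DMb2. H2-Eb1 holds GATTGG at 60 bases and CCAATC, a match on the opposite strand, at 35 bases.

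Cortical genes were mostly higher, but by less than the keratins. Of 9 tested, 7 were higher and 2 were not called (median 1.53). Kitl, the stem cell factor gene, had the smallest difference of the 7 at 0.44. Its call was lost in 11 of the alternatives described at the end. Psmb11, the proteasome subunit beta5t found in cortical epithelium, read 34.4, 55.9, 48.7, 46.5 and 34.3 CPM in the epithelial libraries and 10.7, 9.63, 11.4 and 10.8 CPM in the fibroblast libraries (2.10 ± 0.23, adjusted p = 4.12e-07). Prss16, a serine protease of cortical cells, read 114, 173, 169, 177 and 166 CPM in the epithelial libraries and 44.5, 41.8, 30.3 and 56.0 CPM in the fibroblast libraries (1.92 ± 0.20, adjusted p = 1.36e-07). The fibroblast means of these 2 genes were 24.2% and 27.0% of the epithelial means, against 2.94% to 7.21% for the keratins. Tbata stood at 23.4% and Ccl25, the chemokine that attracts thymocyte progenitors, at 37.8%. Ly75, the endocytic receptor DEC-205, came closer to the keratins at 10.1% (3.37 ± 0.21). The source of this cortical RNA in the fibroblast libraries was not tested.

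Medullary genes were sparse. Of 15 on the list 9 could be tested, of which 2 were higher, beside 17.4% of all genes, and 7 were not called (median 0.29). Aire, the factor that drives ectopic self-antigen transcription, read 1.23, 5.90, 2.44, 2.91 and 4.09 CPM in the epithelial libraries and 2.30, 1.26, 0 and 2.95 CPM in the fibroblast libraries and fell short of the minimum for a test. Fezf2, another such factor, read 18.4, 12.7, 11.5, 17.9 and 14.5 CPM in the epithelial libraries and 1.92, 2.09, 0 and 2.95 CPM in the fibroblast libraries (2.98 ± 0.43, adjusted p = 1.3e-05). Its fibroblast values reached no more than 2.95 CPM while no epithelial library was below 11.5 CPM. Tnfrsf11a, the receptor RANK, was the other one called (1.78 ± 0.44, adjusted p = 0.00288). Ccl21a, a chemokine of medullary cells, read 325, 27.0, 18.4, 22.0 and 14.9 CPM in the epithelial libraries and 26.5, 86.6, 78.9 and 80.5 CPM in the fibroblast libraries, so that epithelial library 1 stood alone above all others. Its difference was 0.13 ± 0.73 (adjusted p = 0.92), and without epithelial library 1 it was -1.70 (adjusted p = 0.000281), lower in the epithelial libraries. Ccl21a has near-identical copies in the genome, so its reads may be split between them.

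Tuft cell genes gave no common direction: 2 of 4 tested were higher and 2 lower, and Pou2f3, the tuft master regulator, had too few reads. Sox9, which progenitors and chondrocytes also express, was higher (2.17 ± 0.27), while Dclk1, a kinase gene used as a tuft marker, was lower (-3.34 ± 0.22) with 512 to 954 CPM in the fibroblast libraries. Of 15 self-antigen genes counted, 2 could be tested: Pcp4, a Purkinje cell protein gene, read 23.4 to 41.8 CPM against 0.384 to 2.95 CPM (4.81 ± 0.40, adjusted p = 7.25e-09), and the milk protein gene Csn2 was not called (1.05 ± 0.52, adjusted p = 0.134).

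**Figure D2:**
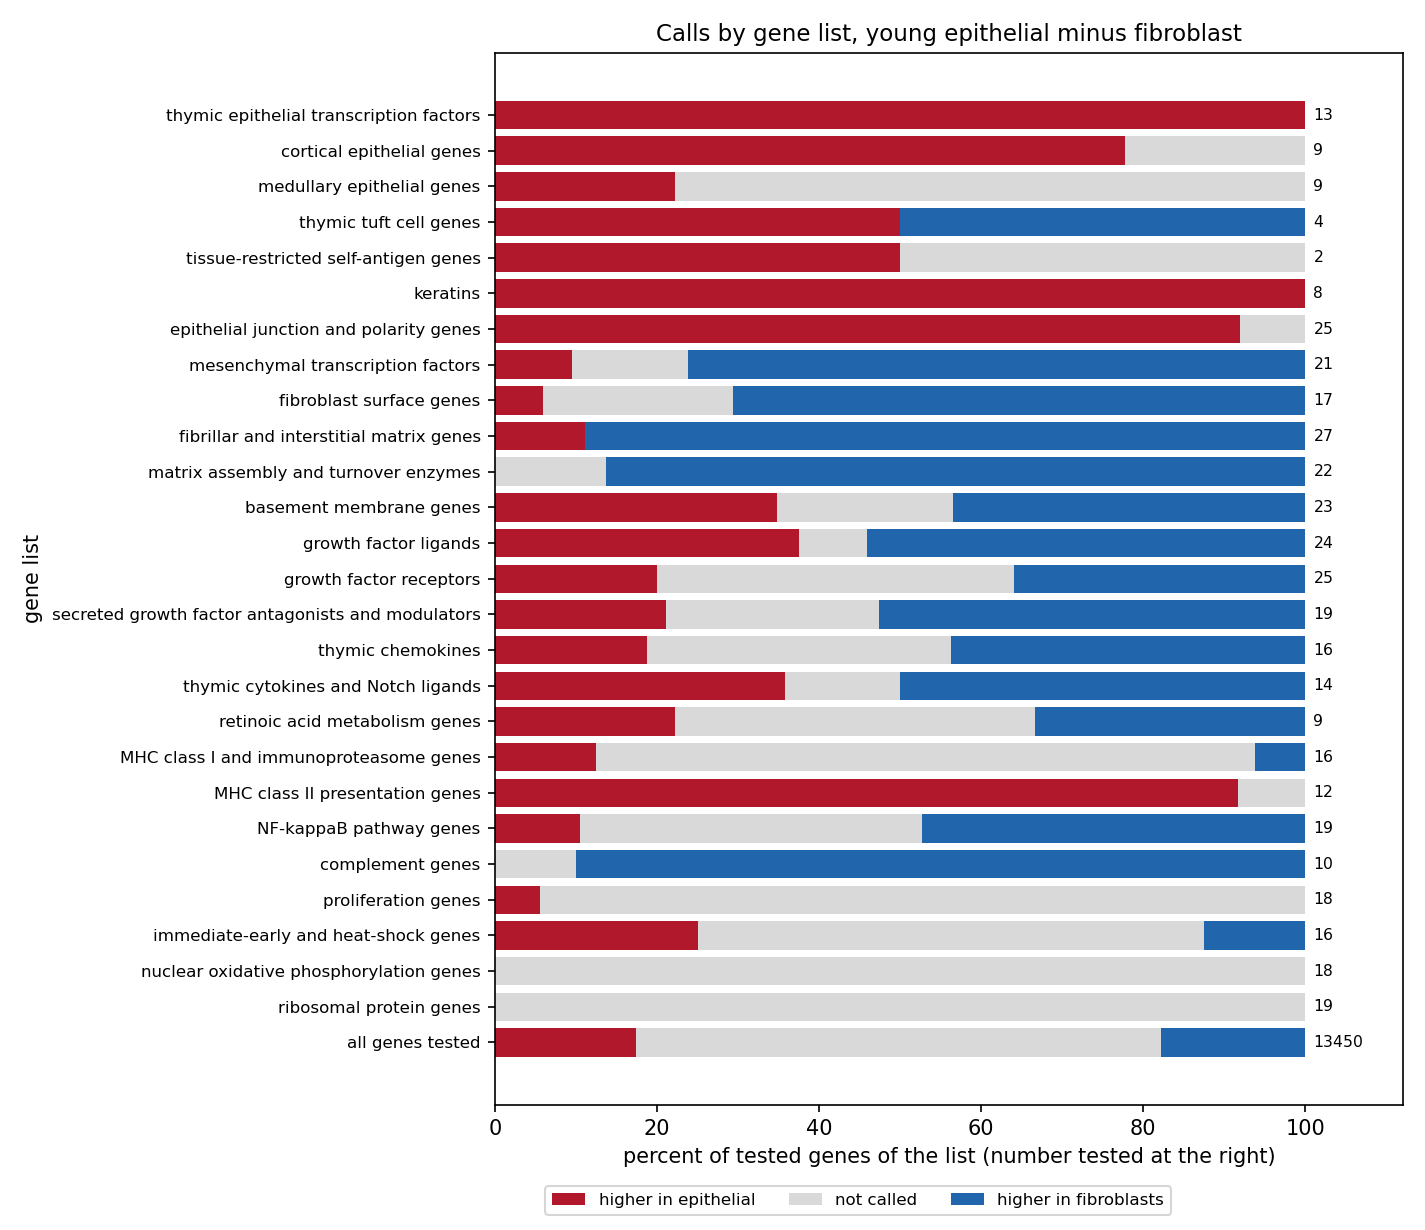
Percent of the tested genes of each list that were higher in the epithelial libraries (red), not called (grey) or higher in the fibroblast libraries (blue), with the number tested at the right and all 13450 genes in the bottom bar. Keratins and thymic epithelial transcription factors are entirely red, and oxidative phosphorylation and ribosomal lists entirely grey. Mesenchymal transcription factor, fibrillar matrix, matrix enzyme and complement lists are mostly blue.

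On the fibroblast side, 16 of 21 mesenchymal transcription factors tested were lower in the epithelial libraries (median -3.05), 2 were higher and 3 were not called. Tcf21, a helix-loop-helix factor of visceral mesenchyme, read 1.23, 1.55, 4.52, 1.94 and 1.47 CPM in the epithelial libraries and 75.2, 62.8, 37.2 and 62.8 CPM in the fibroblast libraries (-4.74 ± 0.33, adjusted p = 5.53e-10). Prrx1, a homeobox factor of mesenchyme, read 19.7, 30.8, 24.4, 26.2 and 22.4 CPM in the epithelial libraries and 456, 446, 651 and 435 CPM in the fibroblast libraries (-4.27 ± 0.20, adjusted p = 3.61e-12). No epithelial library came near the fibroblast values of either gene. The repressors of epithelial genes were split: Zeb1 (-2.89 ± 0.19), Zeb2 (-3.81 ± 0.23) and Snai1 (-3.05 ± 0.45) were lower. Snai2, which basal epithelia also express, was higher with 110.3 to 149 CPM against 65.6 to 72.0 CPM (0.89 ± 0.16, adjusted p = 0.000148). Runx1, an epithelial and blood cell factor as well, was the other member that was higher (0.89 ± 0.22, adjusted p = 0.00337).

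Of 17 fibroblast surface genes, 12 were lower (median -2.71), 1 was higher and 4 were not called. Pdgfrb, the second PDGF receptor, read 8.61, 9.94, 8.70, 4.60 and 8.34 CPM in the epithelial libraries and 165, 123, 191 and 184 CPM in the fibroblast libraries (-4.35 ± 0.23, adjusted p = 1.64e-11). Pi16, a peptidase inhibitor of adventitial fibroblasts, read 14.8, 25.8, 25.4, 25.4 and 19.5 CPM in the epithelial libraries and 1013, 765, 537 and 381 CPM in the fibroblast libraries (-4.85 ± 0.26, adjusted p = 2.39e-11). Its fibroblast libraries spread more than those of Pdgfrb, yet stayed above every epithelial library. Cd248, which encodes endosialin, had the largest difference of the list (-5.53 ± 0.42), with 703, 279.6, 229.8 and 105 CPM in fibroblast libraries 1 to 4. Some surface genes often used for fibroblasts did not separate the groups: Ly6a, which encodes Sca-1, differed by 0.19 ± 0.18 (adjusted p = 0.475), Itga8 by -0.04 ± 0.20 (adjusted p = 0.913) and Pdpn, the podoplanin gene, by -0.75 ± 0.31 (adjusted p = 0.0638).

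Fibrillar and interstitial matrix genes were lower in 24 of 27 cases and higher in 3 (median -3.26). Together they took 48532 to 65127 CPM in the fibroblast libraries and 4876 to 6455 CPM in the epithelial libraries. Col1a2, an alpha chain of collagen I, read 203, 205, 211, 201 and 203 CPM in the epithelial libraries and 10272, 6425, 5612 and 6323 CPM in the fibroblast libraries (-5.08 ± 0.21, adjusted p = 1.34e-12). Dcn, the small proteoglycan decorin, read 1906, 2566, 2901, 2912 and 3085 CPM in the epithelial libraries and 22218, 22413, 17733 and 23093 CPM in the fibroblast libraries (-2.96 ± 0.19, adjusted p = 2.18e-10). The epithelial mean was 2.85% of the fibroblast mean for Col1a2 and 12.5% for Dcn, so the groups were separate in both but not to the same degree. Postn, the periostin gene, differed by -4.49 ± 0.26 and Mfap5, of the elastic microfibrils, by -5.04 ± 0.22. The 3 matrix genes higher in the epithelial libraries were Fmod (4.29 ± 0.29), which encodes the proteoglycan fibromodulin, Col12a1 (3.04 ± 0.21) and Tnc (2.07 ± 0.23), which encodes tenascin C. Fmod read 151, 176, 184, 134 and 262 CPM in the epithelial libraries and 14.2, 4.18, 10.6 and 9.33 CPM in the fibroblast libraries.

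Enzymes that assemble and turn over matrix gave 19 lower, none higher and 3 not called of 22 (median -2.69). Adamts5, an aggrecan-cleaving protease, read 3.69, 9.94, 11.5, 13.8 and 12.3 CPM in the epithelial libraries and 430.1, 380.4, 504 and 286 CPM in the fibroblast libraries (-5.13 ± 0.24, adjusted p = 4.05e-12). Pcolce, which enhances procollagen processing, differed by -4.54 ± 0.22, Serpinh1, the collagen chaperone, by -2.30 ± 0.21, and Mmp2, a gelatinase, by -3.00 ± 0.20. Lox (-0.35 ± 0.19, adjusted p = 0.168), Timp1 (0.18 ± 0.27, adjusted p = 0.678) and Timp3 (-0.02 ± 0.22, adjusted p = 0.961) were the 3 not called.

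The basement membrane lies between the 2 cell types, and its genes were divided between them: 8 of 23 higher, 10 lower and 5 not called (median -0.85). Laminin chain genes of epithelial anchorage were on the epithelial side, with Lama3 at 3.89 ± 0.25 and Lamb3 at 3.59 ± 0.26. Lama3 read 93.5, 81.7, 101, 67.3 and 98.6 CPM in the epithelial libraries and 4.60, 7.11, 8.34 and 4.91 CPM in the fibroblast libraries. The chains Lama2 (-4.88 ± 0.26), Lama4 (-2.58 ± 0.19), Lamb1 (-1.01 ± 0.15), Lamb2 (-2.53 ± 0.22) and Lamc1 (-2.66 ± 0.19) were on the fibroblast side. Lama2 read 3.69, 5.59, 5.22, 9.69 and 10.3 CPM in the epithelial libraries and 173, 202, 329.9 and 217 CPM in the fibroblast libraries. Lama5, an alpha chain of epithelial laminins, was higher (2.52 ± 0.35). The collagen IV chains Col4a1 (-1.42 ± 0.16) and Col4a2 (-1.29 ± 0.19) were lower, and Col4a3 to Col4a6 were not called. Nid1, which joins laminin to collagen IV, was lower by far (-4.42 ± 0.19), whereas Agrn (2.61 ± 0.22), Fras1 (3.15 ± 0.32) and Col17a1 (3.28 ± 0.35), which encodes a hemidesmosome collagen, were higher.

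Complement genes were lower in 9 of 10 cases (median -3.31) and none was higher. They summed to 10094 to 11793 CPM in the fibroblast libraries and 1210 to 1306 CPM in the epithelial libraries. C3, the central component, read 671, 815, 809, 747 and 697 CPM in the epithelial libraries and 4877, 5286, 6797 and 6339 CPM in the fibroblast libraries (-2.92 ± 0.18, adjusted p = 9.65e-11). Serping1, the C1 inhibitor gene, differed by -3.55 ± 0.17, and Cd55, a decay-accelerating factor, by -3.87 ± 0.20. Cfb, of the alternative pathway, was not called (-0.81 ± 0.32, adjusted p = 0.0587).

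Growth factor ligands were divided: of 24 tested, 9 were higher, 13 were lower and 2 were not called (median -0.68). Fgf10 read 3.69, 2.80, 2.44, 1.70 and 2.45 CPM in the epithelial libraries and 137, 75.3, 107 and 45.2 CPM in the fibroblast libraries (-5.18 ± 0.33, adjusted p = 1.75e-10). Fgf7, the keratinocyte growth factor, read 2.46, 3.42, 4.87, 6.30 and 7.68 CPM in the epithelial libraries and 72.5, 84.1, 41.7 and 49.6 CPM in the fibroblast libraries (-3.47 ± 0.28, adjusted p = 6.5e-09). Their receptor Fgfr2 ran the opposite way and read 105, 92.6, 88.1, 78.7 and 94.3 CPM in the epithelial libraries and 4.99, 7.53, 6.07 and 5.89 CPM in the fibroblast libraries (3.93 ± 0.23, adjusted p = 4.55e-11). So each library with the ligands high had the receptor low and the reverse. Fgfr1, the FGF receptor of mesenchyme, was on the fibroblast side (-3.09 ± 0.20). Transcripts of the FGFR2 splice forms were not distinguished by these 3′ counts.

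The PDGF pair ran in the other direction. Pdgfa read 368, 314, 369, 314 and 339.5 CPM in the epithelial libraries and 43.0, 43.9, 38.7 and 38.3 CPM in the fibroblast libraries (3.09 ± 0.17, adjusted p = 3.65e-11), and Pdgfc was higher too (3.37 ± 0.31), while the receptors Pdgfra and Pdgfrb were the fibroblast genes given above. Gas6, the ligand of the TAM receptors, was higher in the epithelial libraries (1.20 ± 0.18, adjusted p = 1.71e-05), and its receptor Axl was lower (-2.68 ± 0.19, adjusted p = 6.05e-10). Among BMP ligands, Bmp4, which the early thymus needs, read 13.5 to 25.8 CPM in the epithelial and 125 to 162 CPM in the fibroblast libraries (-2.79 ± 0.20), and Bmp2 differed by -4.23 ± 0.29. The type II BMP receptor Bmpr2 differed by -0.13 ± 0.19 (adjusted p = 0.642) and Bmpr1a by 0.16 ± 0.21 (adjusted p = 0.614), neither called.

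Wnt4 read 107, 91.1, 127, 90.1 and 98.6 CPM in the epithelial libraries and 4.22, 3.35, 5.31 and 4.91 CPM in the fibroblast libraries (4.59 ± 0.24, adjusted p = 1.64e-11). Wnt5a was lower (-2.19 ± 0.33). Fzd6 (4.84 ± 0.40) and Fzd7 (1.75 ± 0.26), receptors of the Frizzled family, and Lgr4 (1.93 ± 0.23), the R-spondin receptor, were higher in the epithelial libraries, while Fzd1 (-2.28 ± 0.22) was lower. The R-spondin Rspo3 was lower (-4.46 ± 0.40), with 16.7 to 31.5 CPM in the fibroblast libraries against 0.490 to 1.74 CPM. Of 25 receptors in all, 5 were higher, 9 lower and 11 not called (median -0.13). Of all genes, 17.4% were higher and 17.9% lower. Igf1, the insulin-like ligand, was lower (-2.15 ± 0.22), and its receptor Igf1r was not called (-0.14 ± 0.23, adjusted p = 0.701).

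Secreted antagonists and modulators were mostly on the fibroblast side, with 10 of 19 lower, 4 higher and 5 not called (median -1.38). Dkk2 (-4.70 ± 0.24) and Sfrp2 (-4.39 ± 0.44), both Wnt modulators, were lower, as was Ltbp1 (-4.54 ± 0.19), which stores latent TGF-beta. The IGF-binding proteins were split: Igfbp6 (-4.31 ± 0.22), Igfbp7 (-2.89 ± 0.19) and Igfbp4 (-1.38 ± 0.19) were lower, whereas Igfbp2 (3.51 ± 0.20) and Igfbp5 (1.99 ± 0.29) were higher and Igfbp3 was not called (0.05 ± 0.18, adjusted p = 0.875). Igfbp2 read 138, 122, 108, 144 and 120.3 CPM in the epithelial libraries and 11.1, 12.6, 10.6 and 10.8 CPM in the fibroblast libraries.

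**Figure D3:**
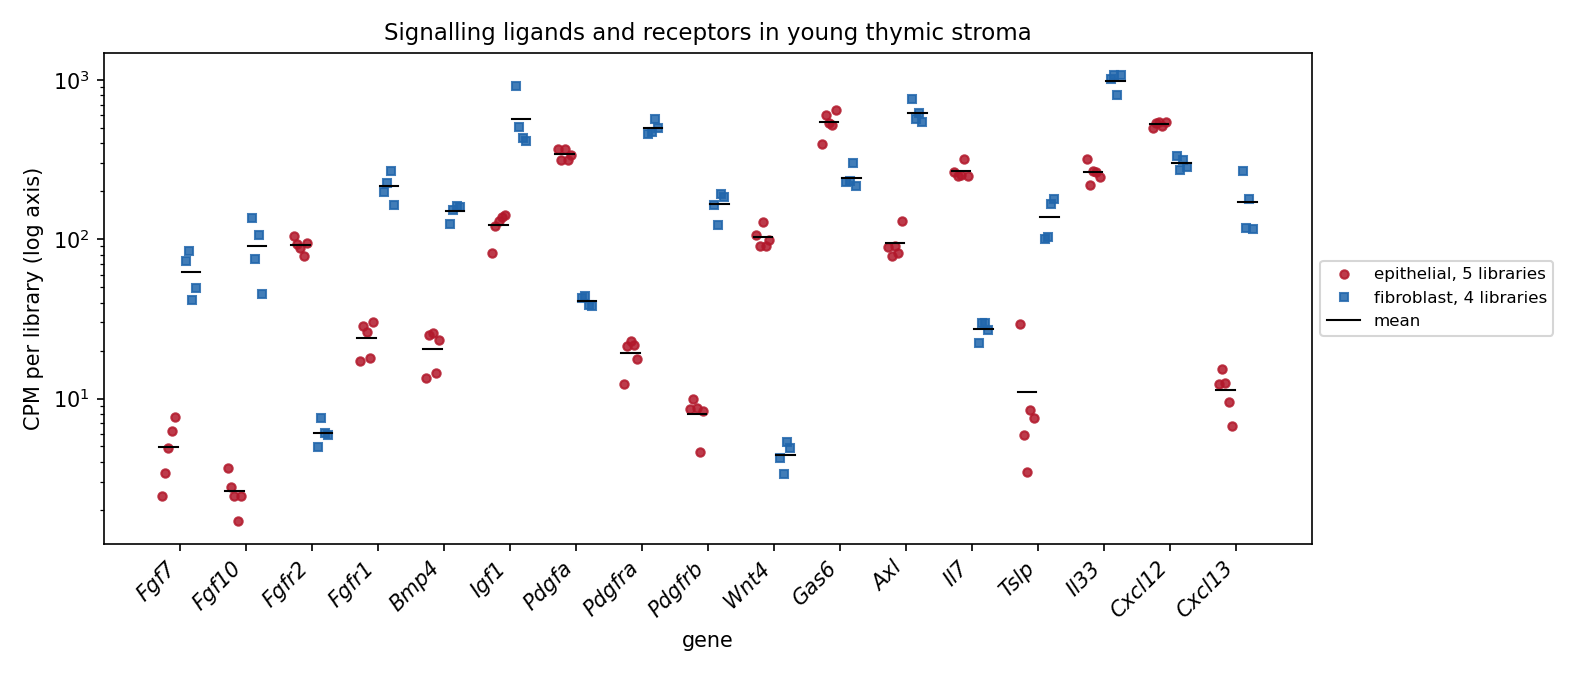
CPM of 17 ligand and receptor genes on a log axis, one point per library (circles, 5 epithelial; squares, 4 fibroblast) with the mean as a black bar. Fgf7 and Fgf10 are high in the fibroblast libraries where Fgfr2 is low, and Pdgfa is high in the epithelial libraries where Pdgfra and Pdgfrb are low.

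Thymic cytokines and Notch ligands were divided between the cell types: 5 of 14 tested were higher, 7 lower and 2 not called (median -0.85). The small and unsteady difference of Kitl, given above, is among the 5. Il7, the survival cytokine of early T cells, read 266, 249, 252, 318 and 248 CPM in the epithelial libraries and 22.3, 29.7, 29.6 and 27.0 CPM in the fibroblast libraries (3.34 ± 0.19, adjusted p = 3.52e-11). Il33, an alarmin, read 319.7, 218, 269.8, 265 and 246 CPM in the epithelial libraries and 1018, 1068, 798 and 1068 CPM in the fibroblast libraries (-1.86 ± 0.18, adjusted p = 4.59e-08). In the first gene all epithelial libraries and in the second all fibroblast libraries were the higher ones. Flt3l (-3.07 ± 0.23), Il34 (-3.74 ± 0.20), Tnfsf13b (-3.47 ± 0.23), which encodes BAFF, and Tslp (-3.95 ± 0.38) were lower as well. Among Notch ligands, Jag2 (3.50 ± 0.29) and Dll1 (2.06 ± 0.25) were higher, and Dll4, the ligand that commits progenitors to the T lineage, had too few reads to be tested, at 1.04 to 7.46 CPM in the epithelial and 0.758 to 1.26 CPM in the fibroblast libraries.

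Of 16 chemokines tested, 3 were higher, 7 lower and 6 not called (median -0.12), beside 17.4% higher and 17.9% lower of all genes. Cxcl12, which holds thymocyte progenitors in the cortex, read 498, 535, 548, 512 and 545 CPM in the epithelial libraries and 335, 272, 315 and 283 CPM in the fibroblast libraries (0.85 ± 0.15, adjusted p = 0.00015). Cxcl13, a B cell attractant, read 12.3, 15.2, 12.5, 9.45 and 6.70 CPM in the epithelial libraries and 269.7, 118, 179 and 116 CPM in the fibroblast libraries (-3.93 ± 0.28, adjusted p = 1.03e-09). Ccl11, the eosinophil attractant eotaxin, was lower (-1.91 ± 0.18), and so were Ccl2 (-2.80 ± 0.21), Ccl7 (-1.98 ± 0.22), Cxcl1 (-2.51 ± 0.19) and Cxcl14 (-4.13 ± 0.17). Ccl25 was higher (1.45 ± 0.19). Ccl19 was above 20 CPM only in epithelial libraries 1 and 3, at 43.0, 0.932, 25.8, 0.242 and 0.817 CPM over the 5 epithelial libraries, and was not called (1.82 ± 1.06, adjusted p = 0.209).

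In the retinoic acid list 2 of 9 were higher, 3 lower and 4 not called (median -0.05), beside 17.4% higher and 17.9% lower of all genes. Dhrs3, which lowers retinaldehyde, was higher (2.05 ± 0.35). Aldh1a2 (-4.55 ± 0.55) and Rdh10 (-1.91 ± 0.20), which act at successive steps in the synthesis of retinoic acid, were lower. NF-kappaB pathway genes gave 2 higher, 9 lower and 8 not called of 19 (median -0.33). Nfkb2, of the non-canonical branch, was lower (-1.05 ± 0.21, adjusted p = 0.000472), as was its kinase gene Map3k14 (-1.05 ± 0.29, adjusted p = 0.00676), and Relb was not called (-0.33 ± 0.17, adjusted p = 0.162).

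General cell functions follow, beside 35.3% of all genes called in either direction. None of 18 nuclear oxidative phosphorylation genes (median 0.25) and none of 19 ribosomal protein genes (median 0.15) was called, but with total counts only, 8 and 2 of them were higher. Of 18 proliferation genes, 1 was called, Rrm2 (1.14 ± 0.37, adjusted p = 0.0189), a call lost without fibroblast library 2 (0.92, adjusted p = 0.0777) or 4 (1.05, adjusted p = 0.0522). Mki67 was not called (0.40 ± 0.25, adjusted p = 0.239). Of 16 immediate-early and heat-shock genes, which respond to dissociation of tissue, 4 were higher, 2 were lower and 10 were not called (median 0.14), against 6 higher and 0 lower with total counts only. Fos, for one, differed by -0.11 ± 0.20 (adjusted p = 0.735).

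The genes with the largest differences, taken by a fixed rule (past the threshold, at least 50 CPM in the higher group, no overlap, 12 per direction), added members outside the lists. On the epithelial side the largest was Wscd1, at 103, 60.6, 67.5, 61.3 and 72.3 CPM in the epithelial libraries and 1.53, 1.67, 0.758 and 1.96 CPM in the fibroblast libraries (5.54 ± 0.32, adjusted p = 5.14e-11). Ntf5, which encodes neurotrophin 4, read 66.4, 74.0, 103, 87.9 and 75.4 CPM in the epithelial libraries and 0.384, 2.93, 3.03 and 2.45 CPM in the fibroblast libraries (5.32 ± 0.33, adjusted p = 1.3e-10). Nrtn, which encodes the GDNF-family ligand neurturin, read 215, 142, 151, 184 and 194 CPM in the epithelial libraries and 8.44, 4.60, 2.27 and 9.82 CPM in the fibroblast libraries (4.78 ± 0.29, adjusted p = 8.48e-11). Both trophic factor genes were low in all 4 fibroblast libraries. Pak3 (5.33 ± 0.36), a kinase gene of neurons, Sv2b (5.01 ± 0.34), of synaptic vesicles, Plppr4 (5.32 ± 0.42) and Minar2 (4.89 ± 0.28) belonged to the same 12, as did Fermt1 (4.84 ± 0.24), a kindlin of epithelial adhesion, Eppk1 (4.80 ± 0.30), a keratin linker, and Clca3a2 (4.91 ± 0.27).

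On the fibroblast side the largest difference was in Emilin2, an elastic fibre protein gene, at 1.23, 3.11, 2.09, 1.45 and 2.13 CPM in the epithelial libraries and 206, 115, 95.5 and 46.6 CPM in the fibroblast libraries (-5.73 ± 0.39, adjusted p = 4.53e-10). Aspn, which encodes the proteoglycan asporin, read 1.23, 6.53, 5.92, 6.06 and 5.23 CPM in the epithelial libraries and 302, 270.3, 265 and 244 CPM in the fibroblast libraries (-5.57 ± 0.22, adjusted p = 9.99e-13). Mrgprg, an orphan receptor gene of the Mas-related family, read 1.23, 2.49, 2.09, 3.63 and 3.92 CPM in the epithelial libraries and 55.3, 216, 99.3 and 81.5 CPM in the fibroblast libraries (-5.18 ± 0.38, adjusted p = 1.43e-09), with fibroblast library 2 above the other 3. Htra3 (-5.23 ± 0.20), a serine protease gene, Cygb (-5.16 ± 0.21), which encodes cytoglobin, Col5a3 (-5.18 ± 0.24), Tspan11 (-5.20 ± 0.21), Gpr153 (-5.26 ± 0.29) and Rem1 (-5.13 ± 0.25) were the rest beside Cd248, Fgf10 and Adamts5. By level, the rule took Gsn (-3.36 ± 0.18), the actin-severing gelsolin, and Sparcl1 (-3.80 ± 0.26) beside Dcn, Col1a2 and C3, and on the epithelial side Ifi27l2a (2.08 ± 0.24), an interferon-induced gene, beside H2-Ab1 (4.17 ± 0.20), H2-Aa, Cd74 (2.98 ± 0.20) and Krt18 (4.25 ± 0.22).

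Markers of other cell types were detected, mostly at higher sums in the epithelial libraries. Of 12 marker lists, 9 had a higher summed level there: 7 at an adjusted p of 0.0298 and 2, mural and Schwann cell markers, at 0.0476 (exact two-sided permutation test over libraries, adjusted over 15 library measures, smallest p possible 0.0159). The mesothelial sum, 356.5 to 442.1 CPM in the epithelial libraries, was mostly Krt7 (334 to 403 CPM), a keratin counted above among the epithelial genes. Neutrophil markers summed to 375.3 to 690.6 CPM in the epithelial and 15.35 to 77.84 CPM in the fibroblast libraries, and all 5 tested were higher, while the neutrophil surface gene Ly6g was at 0 to 1.70 CPM and 0 to 1.26 CPM. Globin genes were higher in 4 of 4 cases, while the erythroid gene Alas2 was at most 0.932 CPM. Endothelial markers were higher in 9 of 11 cases, and their sum passed the test without epithelial library 3 alone (adjusted p = 0.0476). Pecam1, the endothelial adhesion gene, read 103, 97.6, 23.7, 88.2 and 69.5 CPM in the epithelial libraries and 7.29, 12.1, 17.4 and 20.6 CPM in the fibroblast libraries (2.47 ± 0.38, adjusted p = 2.36e-05), and epithelial library 3 was the lowest of its group. That library was also the lowest for Fabp4, a fatty acid carrier of capillaries, macrophages and fat, at 1750, 1415, 310.1, 2011 and 1338 CPM in the epithelial libraries and 84.8, 103, 83.4 and 160.0 CPM in the fibroblast libraries. Fabp4 made up most of the adipocyte marker sum, 321.3 to 2024 CPM in the epithelial libraries, a list with 1 of 2 tested genes called. Adipoq, the defining adipocyte gene, was at most 0.484 CPM. Thymocyte markers summed to 288.3 to 411.8 CPM and 200.9 to 274.3 CPM, with 3 of 13 called, all higher, beside 17.4% of all genes. Mural genes split, Acta2 (3.08 ± 0.27) being higher and the pericyte genes Kcnj8 (-3.99 ± 0.32) and Abcc9 (-4.18 ± 0.21) lower. Pth, the parathyroid hormone gene, stood at 1.23, 2.18, 1.74, 21.1 and 104 CPM over epithelial libraries 1 to 5. The part of these cells in the other results was not tested.

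**Figure D4:**
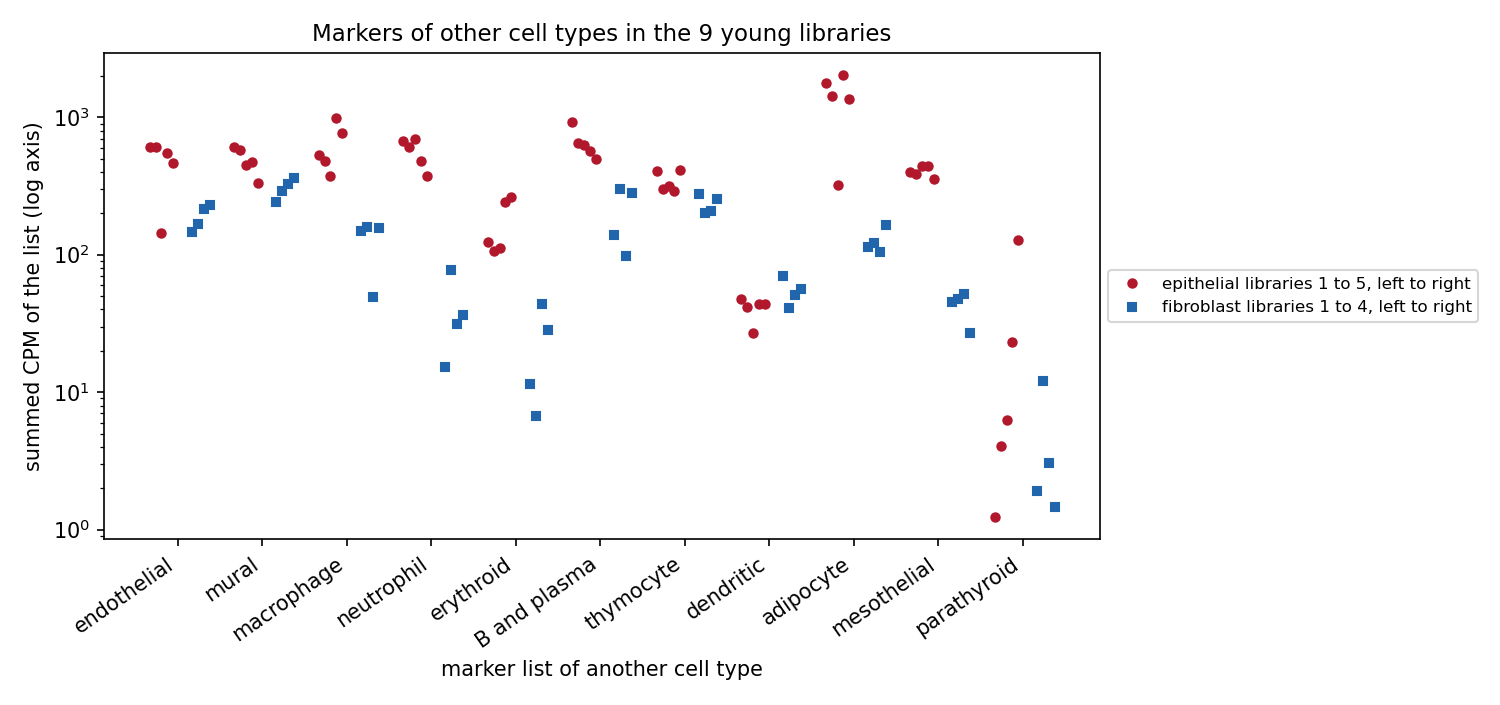
Summed CPM of 11 marker lists of other cell types on a log axis, one point per library (circles, epithelial 1 to 5; squares, fibroblast 1 to 4, left to right). Neutrophil, macrophage, erythroid, B and plasma cell, adipocyte and mesothelial lists lie higher in all 5 epithelial libraries, and epithelial library 3 lies with the fibroblast libraries in the endothelial list.

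The same comparison in 9 old libraries, which the young fit did not use, called 38.6% of 12607 genes, 2435 higher (19.3%) and 2433 lower (19.3%). Of 12307 genes tested at both ages, 2011 were higher in the young and 2303 in the old comparison, and 1461 were higher in both, 72.65% of the young and 63.44% of the old calls. Lower genes numbered 2310 and 2384 with 1709 in both, 73.98% and 71.69%. Genes called in opposite directions were 12 of the 2011 and 16 of the 2310. At 4-fold or more in the young libraries, 754 of the 985 higher and 738 of the 796 lower genes were tested at both ages. Of these, 722 higher and 711 lower ones were called in the same direction in the old libraries. The others of the 985 and 796 were not tested in the old libraries. The difference between the ages was not tested, and the values are set side by side.

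Among epithelial identity genes, the old log2 difference of Foxn1 was 3.93 (young 3.60), that of Epcam 4.30 (young 4.09) and that of Krt14 4.86 (young 4.43). Pdgfra differed by -3.12 (young -4.61) and Col1a1 by -2.76 (young -5.11). Prrx1 was at -1.48 (young -4.27). The cortical genes Psmb11 and Prss16, at 2.10 and 1.92 in the young libraries, were at 1.31 (adjusted p = 0.0176) and 1.21 (adjusted p = 0.00267). Fgf7 was called in opposite directions, at -3.47 in the young and 0.68 in the old libraries (adjusted p = 0.00935). Its old levels were 95.7 ± 16.5 CPM (SD, n = 5) in the epithelial and 60.8 ± 17.5 CPM (SD, n = 4) in the fibroblast libraries. So was Cxcl12, at 0.85 and -0.77 (adjusted p = 0.00685). Tgfb2 was -2.61 in the young and 0.07 in the old libraries (adjusted p = 0.805).

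Against young keratinocytes, another epithelium, the thymic epithelial libraries differed in 61.6% of 13669 genes, 4543 higher (33.2%) and 3874 lower (28.3%). This comparison shares the epithelial libraries with the main one. Junction genes were higher in 6 and lower in 21 of 27, and the keratins of stratified skin were lower: Krt5 by -3.60, Krt14 by -3.14 and Krt15 by -7.58 on the log2 scale. Krt8 (8.55) and Krt18 (11.03) were higher. Class II genes were higher in 11 of 12 cases, and all 9 cortical genes tested were higher. The pouch factors Pax1 (7.63), Pax9 (6.58) and Eya1 (8.15) were higher, Foxn1, which hair follicle keratinocytes also express, by 1.48 (adjusted p = 3.51e-06), and Trp63 was lower (-1.43, adjusted p = 5.44e-08). Dcn was 9.34 and C3 12.33, both higher than in keratinocytes.

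Against young lymph node fibroblasts, fibroblasts of another lymphoid organ, the thymic fibroblast libraries differed in 37.4% of 13378 genes, 2448 higher (18.3%) and 2560 lower (19.1%). This comparison shares the fibroblast libraries with the main one. Of 9 cortical genes 6 were higher and none lower, and of 10 class II genes 9 were higher. Prss16 was 7.10, Psmb11 3.76 and Krt18 6.63, each higher in the thymic fibroblasts. Keratins went both ways, with 4 of 10 higher and 4 lower, among them Krt5 (-2.98) and Krt14 (-4.96), and of 23 junction genes 1 was higher and 17 were lower. The lymph node fibroblast libraries themselves held much keratin RNA. With scaling over all young libraries, Krt14 was 1024 ± 196 CPM (SD, n = 3) there. It was 692 ± 114 CPM (SD, n = 5) in thymic epithelium and 30.2 ± 7.65 CPM (SD, n = 4) in thymic fibroblasts. Krt5 was 278 ± 82.7 CPM (SD, n = 3) in lymph node fibroblasts. The source of this RNA was not tested. Among fibroblast genes, Pdgfra was higher (2.06, adjusted p = 1.23e-06), as were Tcf21 (6.51), Fgf10 (2.93), C3 (4.42), Cxcl13 (4.65) and Mmp9 (7.59). Col1a1 (-3.80), Col3a1 (-1.62) and Fmod (-6.82) were lower. Col1a1 varied widely among the lymph node fibroblast libraries, from 6823 to 27947 CPM with scaling over all young libraries. Complement genes were higher in 8 of 10 cases.

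Across the 23 young cell types of the series, with TMM scaling over all young libraries, Foxn1 was highest in thymic epithelium at 55.3 ± 11.7 CPM (SD, n = 5). It was 20.7 ± 9.63 CPM (SD, n = 3) in the libraries labelled skin fibroblasts and 20.0 ± 5.21 CPM (SD, n = 4) in keratinocytes, 2 levels within each other's spread, and 4.35 ± 0.588 CPM (SD, n = 4) in thymic fibroblasts, the fourth of 23. Psmb11 was 40.3 ± 8.77 CPM (SD, n = 5) in thymic epithelium and 8.95 ± 0.505 CPM (SD, n = 4) in thymic fibroblasts, the second level, above satellite stem cells at 1.37 ± 0.527 CPM (SD, n = 3). H2-Aa was 3018 ± 497 CPM (SD, n = 5) in thymic epithelium and 1625 ± 724 CPM (SD, n = 5) in CD4 memory cells, whose library ranges overlapped. Pdgfra was highest in muscle fibroblasts (641 ± 119.9 CPM (SD, n = 3)), then in thymic fibroblasts (419 ± 32.6 CPM (SD, n = 4)) and fat progenitors (389.5 ± 42.3 CPM (SD, n = 4)), the last 2 within their spread, and lower in lymph node fibroblasts (109 ± 14.6 CPM (SD, n = 3)).

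**Figure D5:**
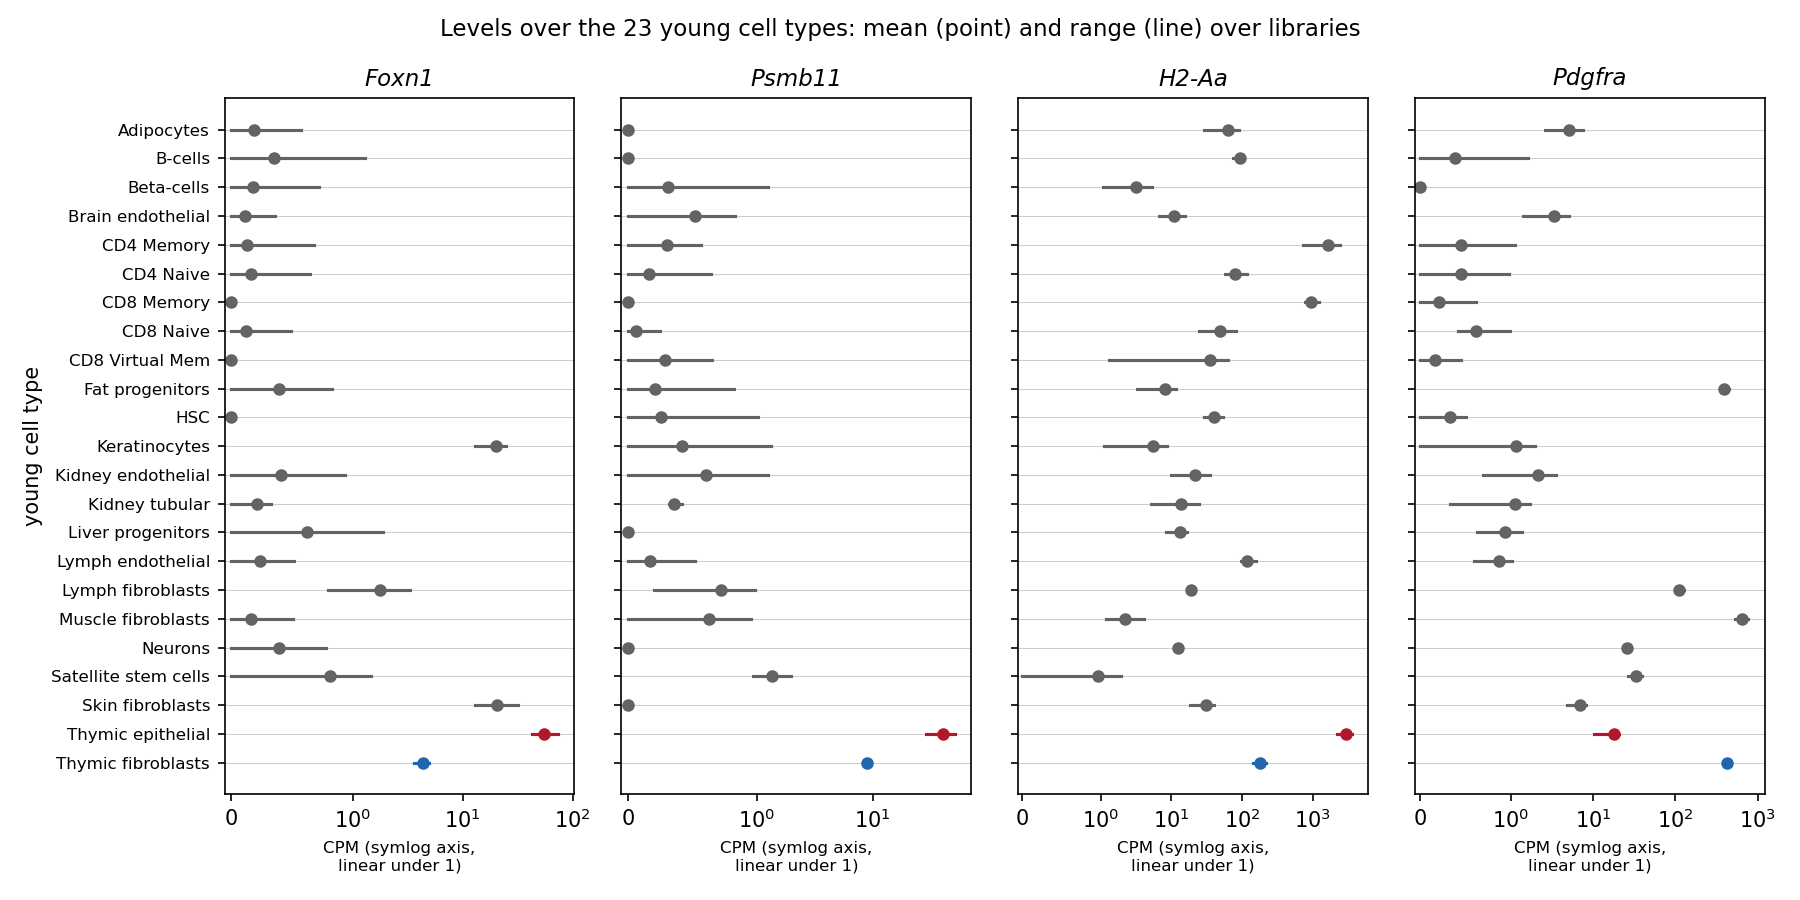
Mean (point) and range (line) over libraries of Foxn1, Psmb11, H2-Aa and Pdgfra in CPM on symlog axes, linear under 1, in the 23 young cell types, with thymic epithelium in red and thymic fibroblasts in blue. Thymic epithelium has the highest mean in the first 3 panels, and thymic fibroblasts are second for Psmb11 and Pdgfra.

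Of the 985 genes 4-fold or more higher in the epithelial libraries, 210 (21.32%) had their highest mean of all 23 cell types in thymic epithelium, against 430 of the 13450 tested (3.197%). Of the 796 lower genes, 138 (17.34%) peaked in thymic fibroblasts (320 of all tested, 2.379%), 131 in muscle fibroblasts, 126 in fat progenitors and 75 in lymph node fibroblasts. The choice of these genes by their difference raises the first share of each pair, and the counts are a description. Genes of the lists that peaked in thymic epithelium included 8 of 12 class II genes, 7 of 13 transcription factors and 6 of 9 cortical genes, but 1 of 25 junction genes. Il7 was 244 ± 29.8 CPM (SD, n = 5) there and 22.8 ± 2.82 CPM (SD, n = 4) in thymic fibroblasts, the second level, and Isl1 was 169 ± 38.0 CPM (SD, n = 5) against 152 ± 9.69 CPM (SD, n = 4) in beta cells, within their spread. In thymic fibroblasts C3 peaked at 4896 ± 689 CPM (SD, n = 4), ahead of fat progenitors at 3380 ± 349 CPM (SD, n = 4). Of the 27 fibrillar and interstitial matrix genes, Fbln1 alone peaked there, as did 3 of 22 matrix assembly and turnover enzymes, and Dcn was the third at 18016 ± 2383 CPM (SD, n = 4).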

How the data were processed

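The study measured bulk RNA-seq libraries of sorted mouse cells; 9 of its 170 libraries entered the main comparison. The values are raw counts per gene that the authors deposited, per the labels' protocols made from poly(A) 3′ libraries with an 8 bp index and a 10 bp molecular identifier; the sources used here do not say whether identifiers served to remove duplicates, so counts may hold copies of 1 molecule. The submitters' processing notes name STAR, featureCounts 2.0.1, GRCm38.p6 and mm10. Groups came from the titles.

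Genes were filtered by edgeR's filterByExpr (minimum count 10, minimum total 15), scaled by TMM, and tested with edgeR 4.0.16 (R 4.3.3, limma 3.58.1) by glmQLFit and glmQLFTest, two-sided, with Benjamini-Hochberg adjustment and a threshold of 0.05; a stricter call also needed an absolute log2 difference of at least 2 (4-fold). DESeq2 1.42.0 was an alternative. On simulated counts for the young comparison (13450 genes, 200 changed), 58% of 2-fold and 94% of 4-fold changes were recovered. Of the calls made there, 5% were false. Far more than 200 genes were called in the data, so these shares need not hold for them. Total counts of 738488 to 5607934 limit what low genes can show.

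Named genes were, per direction, the 12 with the largest difference (at least 50 CPM, no overlap), the 5 with the highest CPM at 4-fold or more, and members of 26 gene lists and 13 marker lists; gene models without names, pseudogenes, antisense genes, receptor segments, Xist and chromosome Y were left out of the first 2 rules. Members and lists were chosen with earlier results of these data known. Lists are described by counts and medians, with no test of the list. Some list members are counted but not reported by name here. Gene positions are from GENCODE on GRCm38.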

Additional observations from a re-analysis of the deposited data

Results flagged for a closer look

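In 41 of 422 groups of libraries examined (9.716%), 1 library lay far from the rest of its group. For normally distributed values chance gives about 1 in 20, but CPM need not be so distributed, and the share is a description. Values are CPM of that library.

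Epithelial library 1, the shallowest of the 9, was above the other 4 for Ccl21a (324.7), Tslp (29.51), Ddx3y (22.14), Epcam (638.2), Wscd1 (103.3), Cxcl1 (43.04) and Aldh1a2 (1.23). It was below them for the class II gene H2-Eb1 (906.3), the cortical protease gene Prss16 (114.4), Runx1 (88.54), Mfap5 (27.05) and Aspn (1.23). A single count in this library is worth about 1.23 CPM, so its values for Aldh1a2 and Aspn rest on 1 read each. Epithelial library 2 was low for Col4a6 (4.972). Epithelial library 3 was high for Fermt1 (204), Plppr4 (90.15) and Tcf21 (4.525).

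Epithelial library 4 was high for Ly6a (2978) and Il7 (318.3) and low for the summed Schwann cell markers (10.42). Epithelial library 5 was high for the parathyroid hormone gene Pth (104.5) and the summed parathyroid markers (127.3), and for Axl (130.4), Lama4 (46.92) and Pou2f3 (4.087).

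Fibroblast library 1 was high for Serpinh1 (2975), Pcolce (1499), Tapbp (932.3) and Ddx3y (45.66) and low for Ccl21a (26.47). Fibroblast library 2 was high for Pth (7.533), the summed parathyroid markers (12.14) and Minar2 (4.185). Fibroblast library 3 was high for Prrx1 (651.4), Zeb2 (357.2) and Nfkb2 (83.42) and low for Dcn (17733), Ccl7 (248.7) and the summed macrophage markers (49.29). Fibroblast library 4 was high for Kcnj8 (61.37) and Dsp (38.78) and low for Col12a1 (17.67).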

How the results depend on the processing

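Alternatives were other scalings, no filter or one at 5 CPM, DESeq2, a test against a 2-fold difference, old libraries as further groups, a replicate block, each library left out, and 2 sets left out together that were chosen after seeing the data. Of 337 called genes among the lists and the named genes, 271 kept their call under all of them and 0 reversed. Of 159 genes not called, 29 were called with total counts only, among them Jup (0.62, adjusted p = 0.0224) and Mki67 (0.63, adjusted p = 0.0475). A count over all genes moved by over 1.5 times in 3 cases. Against 2-fold, 1146 genes were higher and 1070 lower, and without a filter 1482 were higher at 4-fold or more. Some counts of list members moved too. With total counts only, class I and immunoproteasome genes gave 4 higher and 0 lower, and NF-kappaB pathway genes 5 lower. Under that scaling, proliferation genes gave 5 higher and thymocyte markers 6 higher. The moved immediate-early, oxidative phosphorylation and ribosomal counts are given above. Leaving out 1 library gave 2045 to 2397 higher and 2183 to 2429 lower genes, and leaving out epithelial libraries 4 and 5 together gave 1868 and 1991. Pdgfra in thymic fibroblasts was 451.7 CPM with total counts only. Ccl21a, not called over all 9 libraries, was -1.70 (adjusted p = 0.000281) without epithelial library 1 and -1.99 (adjusted p = 2.55e-06) without both libraries numbered 1, and 0.47 was its highest value with 1 library left out.

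With the replicate number as a block, 2213 genes were higher and 2332 lower. Deviations of same-numbered libraries correlated at 0.1029, 0.0805, 0.1062 and 0.2578, not all over 0.1, and the labels do not say what a number marks, so they were not taken as pairs, although both libraries numbered 1 held Ddx3y counts. Epithelial libraries 1 to 4 each correlated best with the fibroblast library of their own number, but fibroblast libraries 2 and 3 did not.

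With 1 library left out, group differences (epithelial minus fibroblast) ranged from 1979 to 5523 genes detected (the latter without epithelial library 1, adjusted p = 0.0429), -2.045 to -1.435 percentage points in the 10 highest genes and, in summed CPM, 92.01 to 140.1 for thymocyte, 394.3 to 503.8 for B and plasma cell, 406.6 to 557.6 for macrophage, 489.7 to 567.3 for neutrophil, 121.7 to 162 for erythroid, 248 to 362.3 for endothelial, 160.2 to 228.5 for mural cell, 349.6 to 379.3 for mesothelial, 1082 to 1499 for adipocyte, 8.16 to 10.69 for Schwann cell, -15.46 to -6.114 for dendritic cell and 4.013 to 36.72 for parathyroid markers, the last 2 not called over all 9. Each marker list called over all 9 libraries lost its call in some of these, where fewer libraries raise the smallest p.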
